A study of Danio rerio with 12 samples.

Results

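Radial glia were compared with the other cells of the adult zebrafish brain after injection of amyloid-β42. The comparison sets 3 GFP-positive libraries against 3 GFP-negative libraries, 6 of the 12 libraries of the series, and covers every gene that passed a filter on low counts, 20237 of 31953 genes. The study injected AB42 or the control peptide that the labels call CPP into brains of Tg(her4.1:EGFP) fish at 6 months of age, and took the brains 48 hours later. Cells were dissociated enzymatically and sorted by flow cytometry on the EGFP that the her4.1 promoter drives. Both fractions of the main comparison therefore come from brains that carry the transgene and received AB42, which the extraction protocol names TR-Aβ42, and they differ in the sort gate. The same pair of fractions after CPP, 3 libraries each, served as the reference for what differs after AB42. The labels do not say whether replicates of a fraction are separate fish, so p-values measure the spread between libraries, and that spread may be technical.

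Radial glia are the astroglia-like stem cells that line the ventricles of the adult zebrafish brain. They keep contact with the ventricle through a ciliated apical side and with vessels through a radial fibre, take up transmitters and buffer potassium, and a part of them divides to give neurons. Their stem cell state is held by Notch signalling: Delta and Jagged ligands on neighbouring cells activate Notch receptors, which with RBPJ switch on her genes, transcriptional repressors that block neuronal differentiation. The reporter in the sort is read from one of these targets, so GFP marks cells that hold EGFP driven by the her4.1 promoter. The GFP-negative fraction holds the remaining cells, among them neurons, oligodendrocytes, microglia and vessel cells.

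Total counts ran from 10419435 to 13750673 in the GFP-positive and from 12777104 to 15027301 in the GFP-negative libraries after AB42. A floor of 3 counts was equal to at most 0.326 and 0.215 CPM (counts scaled to library size, here with the trimmed mean of M-values, TMM). The lowest correlation of log CPM between libraries of a fraction was 0.991, and no library stood apart. Levels below are CPM, and differences are log2 fold changes of GFP-positive over GFP-negative cells from edgeR. The standard error (SE) beside them was not fitted by edgeR. It was derived as the absolute log2 fold change over the square root of edgeR's F statistic, and is approximate. An adjusted p under 0.05 counts as a call. In such bulk fractions fewer cells of a type and less RNA per cell cannot be told apart. Of 20237 genes 14908 were called (73.7%), 7286 higher in GFP-positive cells (36%) and 7622 lower (37.7%), and counts of list members below stand against these shares. At least 2-fold changes made up 18.5% upwards and 25.8% downwards, and the 3 libraries of one fraction lay wholly beyond those of the other for 75.8% of genes. With library totals in place of TMM the median of all genes moved from -0.00974 to -0.262 on the log2 scale, and the calls split into 5452 higher and 9280 lower. Differences of about the size of that shift therefore depend on the scaling.

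The sort was checked on her4.1 itself (ENSDARG00000056732, GRCz10 chromosome 23, 21526006 to 21527063). Its level was 30.1, 28.2 and 28.5 CPM in the GFP-negative libraries and 1827, 1818 and 2031 CPM in the GFP-positive libraries. The fractions were far apart, by a log2 fold change of 6.03 ± 0.07 SE (edgeR adjusted p = 1.03e-39). The difference of the fractions in her4.1 was not called between the injections (6.14 after CPP, edgeR adjusted p of the difference = 0.409). The her4 genes are near-identical copies in a cluster, and they may share reads, which was not tested. GFAP, the intermediate filament of astroglia (ENSDARG00000025301), stood at 4.01, 5.42 and 4.49 CPM and at 277, 296 and 306 CPM. S100B, a calcium-binding protein of glia, stood at 11.3, 14.9 and 14.6 CPM and at 492, 490 and 572 CPM. Neither gene had overlapping fractions, and they differed by log2 fold changes of 5.97 ± 0.09 and 5.25 ± 0.09 SE.

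**Figure D1:**
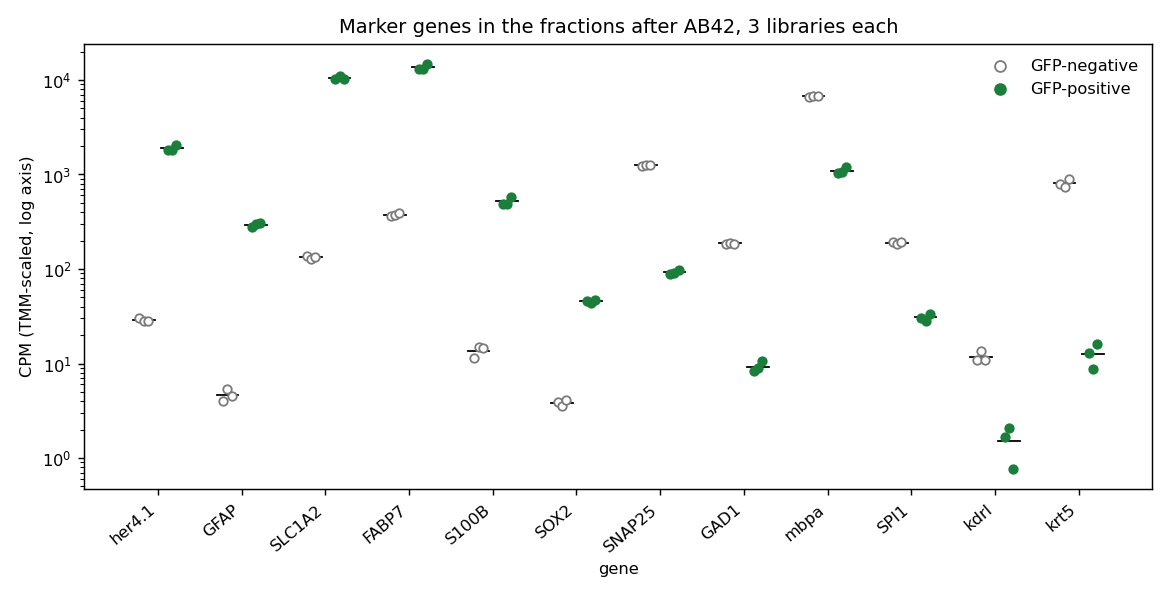
CPM on a log axis of 12 marker genes in each of the 6 libraries after AB42, open points for GFP-negative and filled points for GFP-positive cells, with a bar at the mean of 3 libraries. The glial genes from her4.1 to SOX2 are higher in all GFP-positive libraries, and the markers of neurons, myelin, microglia, endothelium and epithelium are lower.

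Notch signalling differed by role. All 18 Notch effectors tested were higher in GFP-positive cells, with a median log2 fold change of 5.71 against -0.00974 over all genes. Their summed level was 411, 410 and 425 CPM in GFP-negative and 17618, 17601 and 19777 CPM in GFP-positive libraries. The list holds her4.2 (5.88 ± 0.06) and other her4 copies, which may share reads, and the sort used the her4.1 promoter. The count of 18 and the median of this list are therefore partly set by the sort. Beside the her4 copies, the list holds further repressors. Of these, her15.1, her8a and HEY1 were picked after their values were seen. The smallest log2 fold change of the list was 0.77. Levels are mean ± SD of 3 libraries: her15.1 went from 15.7 ± 0.54 to 508 ± 26.7 CPM, her8a from 0.541 ± 0.11 to 48.3 ± 3.99 CPM, and HEY1 from 12.3 ± 1.51 to 188 ± 4.43 CPM. Ligands were split: 5 of 10 were higher and 5 lower, and their median of 0.02 turned to -0.23 with library totals. The ligand jag1b rose by 2.00 ± 0.12 and DLD, a Delta ligand, by 0.81 ± 0.06, whereas DNER, a ligand of neurons, fell by 2.67 (from 9.82, 8.7 and 8.07 to 1.67, 1.42 and 0.978 CPM) and the Delta-like gene DLK2 by 4.68. Of 23 receptors and modifiers 10 were higher and 5 lower, at a median of 0.16 that turned to -0.09 with library totals. The receptor NOTCH3 stood at 9.68, 8.16 and 9.87 CPM in GFP-negative and 95.7, 98.3 and 84.8 CPM in GFP-positive libraries, a log2 fold change of 3.34 ± 0.13. Fringe glycosyltransferases, which tune the choice of ligand, went opposite ways: LFNG rose by 3.89 ± 0.08 and mfng fell from 52.8, 55 and 59.5 to 6.18, 4.98 and 7.93 CPM. RBPJ (ENSDARG00000052091), the DNA-binding partner of the receptor, fell by 0.74, from 36.8, 37.2 and 40 to 22, 26.2 and 19.6 CPM.

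Of 46 radial glia and neural stem cell genes 39 were higher and 4 lower in GFP-positive cells (median 3.33). Their summed level lay between 3967 and 3979 CPM in the GFP-negative libraries and between 54018 and 57010 CPM in the GFP-positive ones. FABP7, a fatty acid binding protein of radial glia (ENSDARG00000007697), stood at 360, 370 and 392 CPM and at 13104, 13089 and 14667 CPM, 36.4-fold apart. The stem cell transcription factor SOX2 rose from 3.87 ± 0.275 to 45.3 ± 1.81 CPM and the filament gene nes from 41.3 ± 3.14 to 200 ± 14.6 CPM. The gap junction gene GJA1 rose by 5.59 ± 0.06. The 4 members in the other direction included PAX6 (ENSDARG00000045936), which encodes a transcription factor and fell by 0.88. The bicarbonate transporter SLC4A4 (ENSDARG00000044808), which fell by 1.54, and CYP19A1, the aromatase that makes oestrogen, were also among them. CYP19A1 (ENSDARG00000041348) had 1.43, 2.25 and 1.1 CPM in GFP-negative and 0.167, 0 and 0.109 CPM in GFP-positive libraries. The name table does not say which of the zebrafish aromatase genes this entry is.

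Genes of transmitter uptake and ion buffering, the support functions of astroglia, were higher in 21 of 30 and lower in 9 (median 2.01). The glutamate transporter SLC1A2 (ENSDARG00000102453) stood at 136, 129 and 133 CPM in GFP-negative and 10317, 10893 and 10271 CPM in GFP-positive libraries. Its log2 fold change of 6.30 ± 0.05 had the smallest p of the list. The GABA transporter SLC6A11 rose by 6.40 ± 0.10, the glutamate transporter SLC1A3 (ENSDARG00000043148) by 4.97 ± 0.07, and the potassium channel KCNJ10 (ENSDARG00000105022) by 7.42 ± 0.26. Glutamine synthetase, GLUL, rose in both copies, by 2.77 ± 0.04 in ENSDARG00000099776 and by 1.58 ± 0.05 in ENSDARG00000100003. In the other direction the sodium pump subunit ATP1B2 (ENSDARG00000099203) fell by 2.4, while another pump subunit, ATP1B4, rose by 5.77 ± 0.06.

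The 12 largest rises by the naming rule began with acsl2, a member of the acyl-CoA synthetase family, at 1.79, 1.22 and 2.83 CPM in GFP-negative and 584, 657 and 699 CPM in GFP-positive libraries. Its fractions differed by 8.39 ± 0.14 (edgeR adjusted p = 6.65e-35). The glypican gpc5b followed with 8.27 ± 0.30, then the small GTPase arf4b with 8.01 ± 0.10. fgfbp3, which encodes a carrier of fibroblast growth factors, stood at 6.09, 6.39 and 7.31 CPM and 1471, 1505 and 1593 CPM. The others were PALMD (7.58), the homeobox gene rx3 (7.43), KCNJ10, LIX1 (7.36), the small heat shock protein hspb15 (7.17), the methionine sulfoxide reductase msrb2 (7.16), the aggrecan acanb (7.13) and AGXT (ENSDARG00000052099, 6.83). Several of these are close to undetected outside the GFP gate: gpc5b had 4 counts, PALMD 2 and AGXT 2 in the 3 GFP-negative libraries together. Among genes of at least 200 CPM the largest rises were again fgfbp3, arf4b and acsl2. hspb15 followed, with the starmaker gene stm (6.71 ± 0.06), the uncoupling protein UCP1 (6.71 ± 0.11), the ammonium transporter RHBG (6.57 ± 0.12) and lratb.1 of retinol esterification (6.56 ± 0.11).

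Among the metabolic lists, cholesterol synthesis genes were mostly higher in GFP-positive cells. The steroid and retinoid, glycolysis and lipid transport lists lay near the shares over all genes (36% higher and 37.7% lower). Of 29 cholesterol synthesis genes 23 were higher and 3 lower (median 0.88). MSMO1, a sterol methyl oxidase, stood at 20.2, 19.7 and 22.4 CPM in GFP-negative and 78.6, 79.1 and 92.7 CPM in GFP-positive libraries, 4.02-fold apart. LBR, a sterol reductase that is also a receptor for lamin B, went the other way, from 62, 64.5 and 59 to 37.7, 37.9 and 34.4 CPM. Retinoid genes ranged widely: of 31 steroid and retinoid genes 13 were higher and 12 lower. CYP26B1, which degrades retinoic acid, rose from 14.6, 14.7 and 13.5 to 447, 463 and 448 CPM, the retinol importer STRA6 by 3.83 ± 0.10 and the binding protein CRABP1 (ENSDARG00000045926) by 3.91 ± 0.09. The retinol carrier RBP4 fell by 4.2, from 46.4, 47 and 52.4 to 2.67, 2.06 and 3.37 CPM. Glycolysis and glycogen genes gave 18 higher and 19 lower of 44, with members of the same step in different fractions. The enolase ENO1 (ENSDARG00000013750) went from 49.6 ± 2.76 to 879 ± 22.4 CPM and eno2 from 173 ± 6.78 to 15 ± 1.71 CPM. Likewise ALDOC, an aldolase, fell by 4.0 in ENSDARG00000057661 and rose by 0.73 in ENSDARG00000019702. Lipid transport genes were 11 higher and 12 lower of 26, with a median of 0.06 that turned to -0.19 with library totals.

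**Figure D2:**
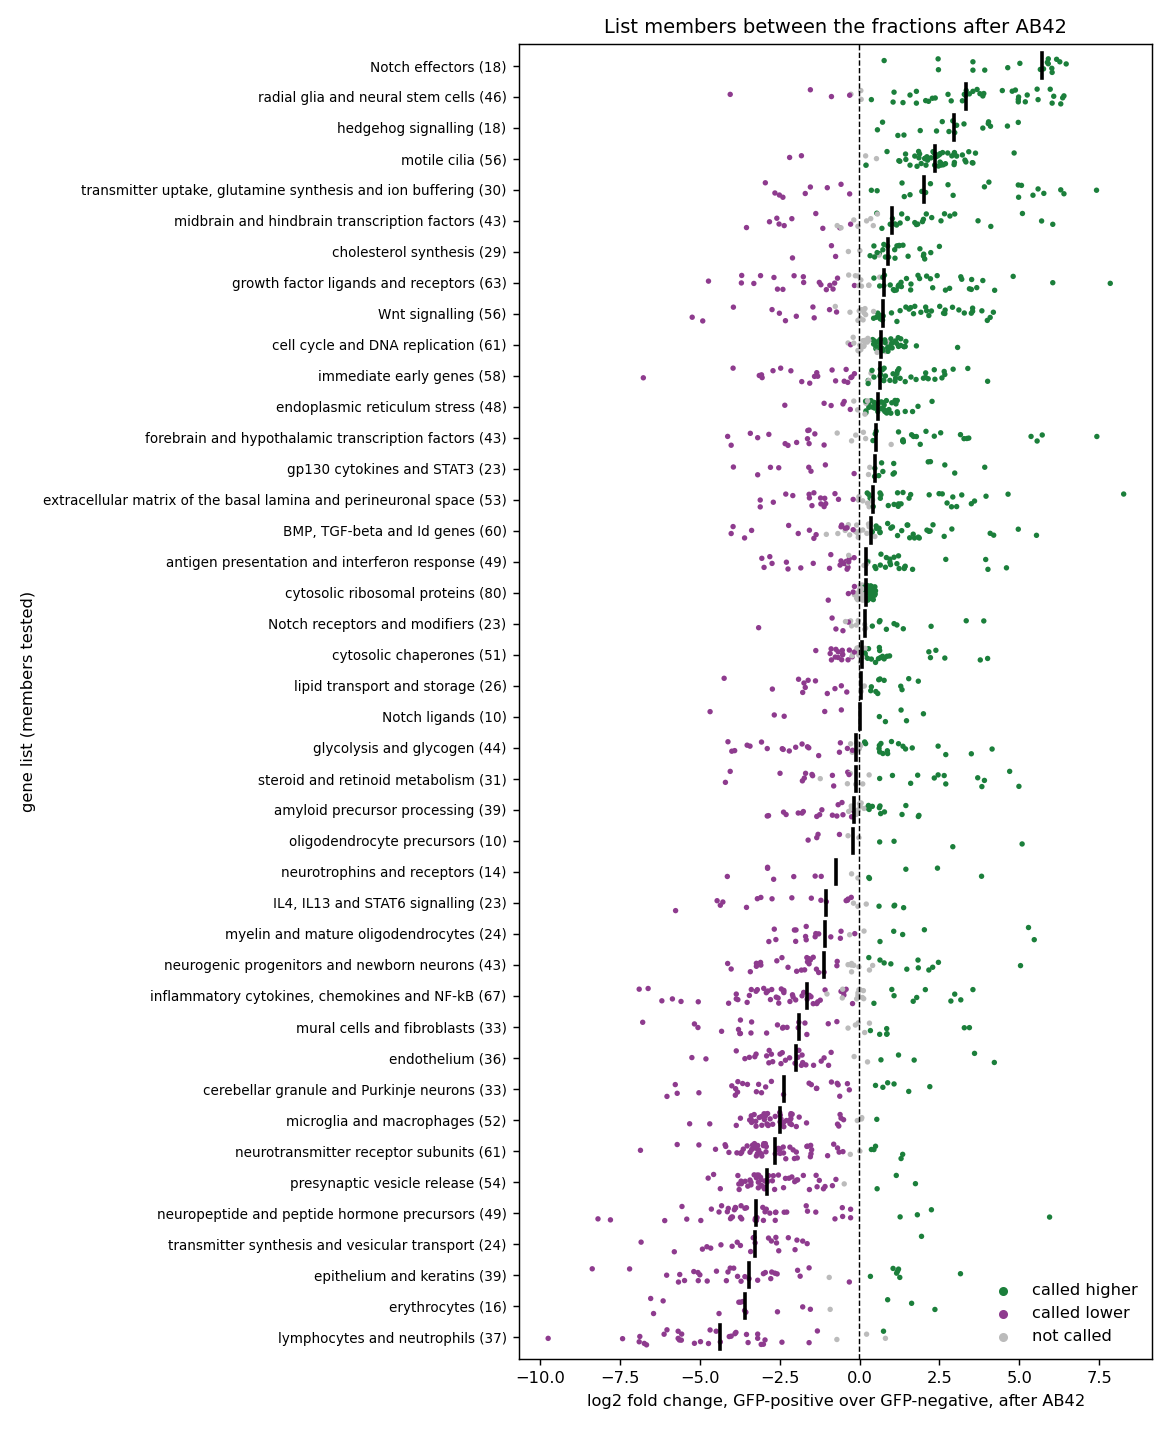
Log2 fold change of GFP-positive over GFP-negative cells after AB42 for every tested member of the 42 gene lists, one row per list in the order of the medians, with members called higher or lower filled in colour, uncalled members grey and the median as a black bar. The dashed line marks the median of all genes tested. Notch effectors stand at the top and lymphocyte and neutrophil genes at the bottom.

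Lists of growth signals held more genes called higher than lower in the GFP-positive fraction. Every one of the 18 hedgehog genes tested was higher there, with a median of 2.95. The ligand SHH (ENSDARG00000068567) stood at 3.01, 3.53 and 3.59 CPM in GFP-negative and 34.7, 35.3 and 27.5 CPM in GFP-positive libraries, the transducer SMO at 2.22, 3.65 and 3.11 CPM and 50, 53.2 and 52.8 CPM, and the target GLI1 at 0.932, 0.852 and 0.621 CPM and 14, 14.2 and 11.7 CPM. The co-receptors GAS1 (ENSDARG00000067984), BOC and CDON rose by 4.97, 3.86 and 3.04. Of 63 growth factor genes 35 were higher and 19 lower. The heparin-binding factor PTN rose by 6.05 ± 0.09 and MDK, its relative, by 3.86 (ENSDARG00000036036) and 3.44 (ENSDARG00000020708), while HBEGF fell from 114, 112 and 127 to 10.3, 12.1 and 13.4 CPM. Wnt genes were higher in 34 and lower in 11 of 56. The ligand WNT7A (ENSDARG00000044827) rose from 52.6 ± 4.18 to 613 ± 15 CPM, and the secreted inhibitor dkk1b fell from 80.8, 78.4 and 77.3 to 2, 1.74 and 2.61 CPM. BMP, TGF-β and Id genes were higher in 28 and lower in 14 of 60, or 24 and 20 with library totals. ID1, an inhibitor of differentiation factors, rose by 4.97 ± 0.10 and the BMP antagonist nog2 by 5.54 ± 0.22, whereas ID4 fell by 2.22.

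Motile cilia genes were higher in 51 of 56 and lower in 2 (median 2.35). FOXJ1, the regulator of motile cilia, rose from 13.9 ± 1.44 to 160 ± 3.56 CPM (SD, n = 3). RFX4, a transcription factor of ciliated cells, rose by 4.84 ± 0.12. The exceptions were spag1a, which fell by 1.82, and TEKT3, which fell by 2.19 from 1.11 CPM. Cell cycle genes were higher in 41 of 61 and lower in 1, BUB3, with a smaller median of 0.68. With library totals 30 were higher and 5 lower, at a median of 0.43. CCND1, the G1 cyclin, rose from 11 ± 0.784 to 92.8 ± 8.67 CPM, the replication clamp PCNA from 93.8, 86.2 and 101 to 142, 142 and 148 CPM and the proliferation marker mki67 from 21.7 ± 5.01 to 35.4 ± 4.4 CPM. The fractions did not overlap in any of the 3 genes, and PCNA differed by 0.62 ± 0.07 and mki67 by 0.71 ± 0.13. Regional transcription factors were found on both sides. Forebrain and hypothalamic factors gave 23 higher and 14 lower of 43, and midbrain and hindbrain factors 25 and 10 of 43. The forebrain factors GSX2 and FEZF2 rose by 5.72 and 5.37 and the dorsal factor PAX3 (ENSDARG00000010192) by 6.05, while EOMES (ENSDARG00000006640), a factor of pallial neurons, fell by 1.58. Matrix genes were 29 higher and 17 lower of 53, with the link protein hapln1a at 3.96 ± 0.11 and the fibronectin FN1 (ENSDARG00000006526) at -2.70 ± 0.18.

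Neuronal genes lay mostly with the GFP-negative fraction. Presynaptic release genes were lower in GFP-positive cells in 50 of 54 and higher in 3 (median -2.91). SNAP25, which drives vesicle fusion, stood at 1240, 1254 and 1270 CPM in GFP-negative and 87.6, 90.6 and 98.3 CPM in GFP-positive libraries in ENSDARG00000020609. The fusion factor NSF fell by 3.81, and both are among the 8 largest falls of abundant genes by the rule. The exceptions included SNCG, a synuclein, which rose by 1.15 ± 0.08, and SYT11 (ENSDARG00000057913), which rose by 0.55 ± 0.05. Transmitter synthesis and vesicular transport genes were lower in 23 of 24, with SLC6A2, the noradrenaline transporter, as the single rise (1.94 ± 0.19). GAD1 (ENSDARG00000027419), the GABA-making enzyme, stood at 185, 189 and 185 CPM and 8.26, 9.01 and 10.6 CPM, and SLC17A7 (ENSDARG00000016480), a vesicular glutamate transporter, at 14.3, 13.6 and 13.1 CPM and 0.167, 0.316 and 0.217 CPM. TH, the rate-limiting enzyme of dopamine synthesis, had 48 counts in the GFP-negative libraries and 0 in the GFP-positive ones, at least 3.97-fold lower by a floor of 3 counts per library. Receptor subunits were lower in 54 of 61, with rises in 5. Genes of cerebellar granule and Purkinje neurons were lower in 27 of 33, with FAT2, a cadherin of granule cells, lower by 65.5-fold, and higher in 6, among them CA8, a carbonic anhydrase-related gene of Purkinje cells, which went from 31.6 ± 0.824 to 146 ± 5.44 CPM.

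Neuropeptide precursors were lower in 45 of 49, with rises in 4 (median -3.23). The precursor NPY stood at 89, 85.5 and 91 CPM in GFP-negative and 2.5, 2.06 and 4.24 CPM in GFP-positive libraries, and kiss1, the kisspeptin precursor, at 50.5, 47.5 and 49.4 CPM and 1, 0.553 and 0.543 CPM. Vasopressin's precursor avp had 123 counts in the GFP-negative and 0 in the GFP-positive libraries, at least 10.2-fold lower. The oxytocin precursor oxt was an exception: it was higher in GFP-positive cells, which held 113, 114 and 127 CPM against 24.9 ± 2.89 CPM in GFP-negative cells, a log2 fold change of 2.25 ± 0.09. The natriuretic peptide precursor nppc was higher as well, by 5.95 ± 0.19. Neurogenic progenitor and newborn neuron genes were split, 11 higher and 24 lower of 43. The proneural factor ascl1a rose from 25.3, 24.3 and 29.4 to 75.5, 69.8 and 75.4 CPM, whereas the later genes NEUROD1 and ELAVL4 fell by 3.23 and 3.1, and the pan-neuronal gene ELAVL3 fell by 1.35, from 464, 445 and 484 to 192, 182 and 171 CPM.

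Myelin genes were lower in 16 of 24, with rises in 6. mbpa, the myelin basic protein gene, stood at 6621, 6758 and 6839 CPM in GFP-negative and 1039, 1061 and 1193 CPM in GFP-positive libraries, a log2 fold change of -2.62 ± 0.05. The largest exceptions were ENPP6 (5.47 ± 0.11) and GPM6B (ENSDARG00000001676, 5.29 ± 0.13). Precursor genes were divided 4 to 4 of 10: OLIG2 fell by 1.34 and SOX10 by 1.61, and the proteoglycan bcan rose by 2.92 ± 0.06. By counts of members the lists of non-neural cells were mostly lower in GFP-positive cells. Microglia and macrophage genes were lower in 48 of 52, with rises in 1, mertka, with a median of -2.49. The macrophage factor SPI1 stood at 192, 185 and 194 CPM and 30.5, 28.2 and 33.4 CPM, the actin bundler LCP1 at 910, 881 and 930 CPM and 90.4, 93.2 and 102 CPM, and the receptor csf1ra at 36.7, 43.9 and 35.7 CPM and 4.51, 6.4 and 3.37 CPM. Microglia markers were low but not at 0 in the GFP-positive libraries, where the list summed to 2188, 2223 and 2416 CPM against 11038, 10980 and 11431 CPM.

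Lymphocyte and neutrophil genes held several of the largest falls. They were lower in 33 of 37, with rises in 1, CEBPB, a stress-responsive factor of many cell types. Their median was -4.36, or -4.08 with genes at 0 counts set to their bound. The T cell factor tbx21 had 0 counts in all GFP-positive libraries and 7.96, 7.67 and 8.76 CPM in the GFP-negative ones, at least 30-fold lower. The immunoglobulin heavy chain ighm stood at 56.8, 54.6 and 60.8 CPM and 0.25, 0.237 and 0.543 CPM. Other falls named by the rule were the platelet integrin itga2b (-8.50), the chemokines ccl38a.5 (-7.76) and ccl33.3 (-7.26), gpr55a (-8.20), itln1 (ENSDARG00000007534, -7.74), spink2.7 (-7.16), spink2.5 (-7.13) and GPR171 (-7.01). Most of these rest on a handful of counts in the GFP-positive libraries: itga2b, itln1, spink2.5 and GPR171 had 1 count each there, over all 3 libraries. Epithelial genes were lower in 31 of 39, with the keratin krt5 at 802, 738 and 889 CPM and 12.8, 8.77 and 16.1 CPM (-6.04 ± 0.11) and the claudin cldn7b at 21.6, 24.5 and 22 CPM and 2 counts in all. The claudin cldn7a went the other way, from 9.64 ± 2.24 to 86.7 ± 7.94 CPM. Endothelial genes were lower in 29 of 36, with rises in 5: the vessel receptor kdrl fell from 10.9, 13.5 and 10.8 to 1.67, 2.06 and 0.761 CPM, while the sphingosine receptor S1PR1 rose from 41.3, 41.1 and 40.3 to 742, 754 and 794 CPM and robo4 by 3.6 ± 0.10. Mural and fibroblast genes were lower in 21 of 33, with rgs5b lower by 13.3-fold, and higher in 7, among them the matrix genes DCN (3.44 ± 0.06) and SPARC (3.28 ± 0.08). Erythrocyte genes were lower in 12 of 16, with rises in 3, and the globin hbaa1 stood at 32, 35.2 and 42.2 CPM and 0.0835, 0.791 and 0.652 CPM. Summed levels of 3 of these lists went against the counts and were higher in GFP-positive libraries. The erythrocyte list summed to 302, 303 and 307 CPM in GFP-negative and 555, 571 and 584 CPM in GFP-positive libraries. For the endothelial list the sums were 838, 821 and 833 CPM and 1186, 1211 and 1205 CPM. For the mural and fibroblast list they were 652, 651 and 653 CPM and 1170, 1180 and 1236 CPM.

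Stress and housekeeping lists had medians from 0.07 to 0.65. ER stress genes, which refold or remove proteins in the endoplasmic reticulum, were higher in GFP-positive cells in 37 of 48 and lower in 6 (median 0.57, 0.32 with library totals). DDIT3, a stress factor, stood at 746, 744 and 753 CPM and 2689, 2606 and 2661 CPM, and the ER chaperone HSPA5 at 2552, 2462 and 2689 CPM and 3107, 3085 and 3142 CPM. Both differed without overlap, HSPA5 by a log2 fold change of 0.28 ± 0.04 that fell to 0.02 and was not called with library totals (edgeR adjusted p = 0.564). Cytosolic chaperones were 22 higher and 16 lower of 51, and their median of 0.07 turned to -0.18 with library totals. The small heat shock protein HSPB1 and the co-chaperone BAG3 rose by 2.22 and 2.17. Immediate early genes, which also respond to tissue dissociation, were 35 higher and 21 lower of 58, over a wide range from -6.77 to 4.01: CEBPD rose from 77.3 ± 8.19 to 1243 ± 51.6 CPM, and NPAS4 (ENSDARG00000055752), an activity-dependent factor of neurons, fell by 3.96. Ribosomal protein genes were 47 higher and 4 lower of 80 under TMM and 7 higher and 22 lower with library totals, so their direction rests on the scaling.

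IL4 is a type 2 cytokine that acts on radial glia in this model. Of the IL4 signalling genes named here, none was called higher in GFP-positive cells after AB42. The ligands il4 and il13 lay with the GFP-negative fraction: il4 stood at 11.8, 10.7 and 11.5 CPM and 0.25, 0.711 and 0.543 CPM, and il13 at 14, 14.7 and 16.2 CPM and 0.0835, 0.158 and 0.652 CPM. The receptor il4r.1 was present in both, at 51, 48.1 and 48 CPM in GFP-negative and 37.8, 42 and 49.8 CPM in GFP-positive libraries, and was not called (-0.19 ± 0.10, edgeR adjusted p = 0.0928). It was called lower with library totals (-0.44, edgeR adjusted p = 0.000189) and without GFP-positive replicate 3 (-0.29, edgeR adjusted p = 0.0167), and also in a fit on the 6 AB42 libraries alone (-0.20, edgeR adjusted p = 0.0383) and with at least 10 CPM in 3 libraries (-0.25, edgeR adjusted p = 0.0259). Its transcription factor stat6 was lower by 0.42, from 26.9, 28.4 and 24.4 to 17.9, 19.1 and 22.9 CPM. Over this list 4 genes were higher and 16 lower of 23. The gp130 cytokine list gave 13 higher and 8 lower of 23. Feedback inhibitor SOCS3 rose by 2.67 (ENSDARG00000025428) and 2.15 (ENSDARG00000026611), the receptor cntfr by 2.22 ± 0.06 and the cytokine il11a from 11.6, 11.4 and 12.7 to 93.9, 91.2 and 97.3 CPM, while the receptor il6r fell by 3.19. Amyloid precursor genes were somewhat lower, with appa at 324, 333 and 325 CPM and 231, 216 and 221 CPM and APP (ENSDARG00000055543) at 313, 315 and 321 CPM and 172, 182 and 173 CPM. The list as a whole was 12 higher and 17 lower of 39, with the sorting and trafficking gene BIN1 (ENSDARG00000042114) at -2.89 ± 0.12. Among 14 neurotrophin genes the receptor NTRK2 rose from 28, 29.8 and 24 to 394, 402 and 361 CPM, the ligand BDNF fell from 6.52, 6.51 and 8 to 1.09, 1.03 and 0.652 CPM and the NGFR gene ENSDARG00000089223 fell by 2.69.

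Inflammatory genes were lower in GFP-positive cells in 46 of 67 and higher in 10. The cytokine il1b fell from 26, 25 and 26.5 to 2.5, 2.61 and 3.15 CPM, and the chemokine receptor CXCR4 (ENSDARG00000041959) from 316 ± 8.74 to 21.9 ± 1.94 CPM. The chemokine cxcl18b and ACKR3 (ENSDARG00000058179), a scavenging chemokine receptor, rose by 2.86 ± 0.07 and 3.55 ± 0.07. Antigen presentation and interferon genes were 22 higher and 21 lower of 49, with a median of 0.21 that turned to -0.05 with library totals. The class II gene mhc2dab stood at 405, 404 and 408 CPM and 48.5, 47.9 and 57.7 CPM and the interferon-stimulated gene isg15 at 48.6, 49.8 and 56.2 CPM and 330, 328 and 349 CPM, far apart in opposite directions.

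Most of the separation was shared with the control injection. Between the fractions after CPP 14782 genes were called (73%), and 83.2% of the genes called after AB42 were called in the same direction after CPP. The log2 fold changes of the 2 injections had a Pearson r of 0.905 across the 20237 genes, which are not independent replicates. Opposite calls were made for 317 genes, of which 261 were lower in GFP-positive cells after AB42 and higher after CPP, and 56 the reverse; with library totals these became 260 genes, 113 and 147, so their balance rests on the scaling. Leaving out CPP GFP-negative replicate 2 gave 166 and 83. The difference of the fraction effects, AB42 minus CPP, was called for 4439 genes (21.9%), 1105 upwards (5.46%) and 3334 downwards (16.5%). With library totals that split became 3248 upwards and 2109 downwards, so the balance of the differences rests on the scaling. Of 1519 such genes higher in GFP-negative cells after both injections, 1226 had a wider gap after AB42. Of 1261 higher in GFP-positive cells after both, 291 had a wider gap. A wider gap in the first set and a narrower one in the second are both downward differences. These gaps were counted under TMM only, so they restate the balance that rests on the scaling.

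**Figure D3:**
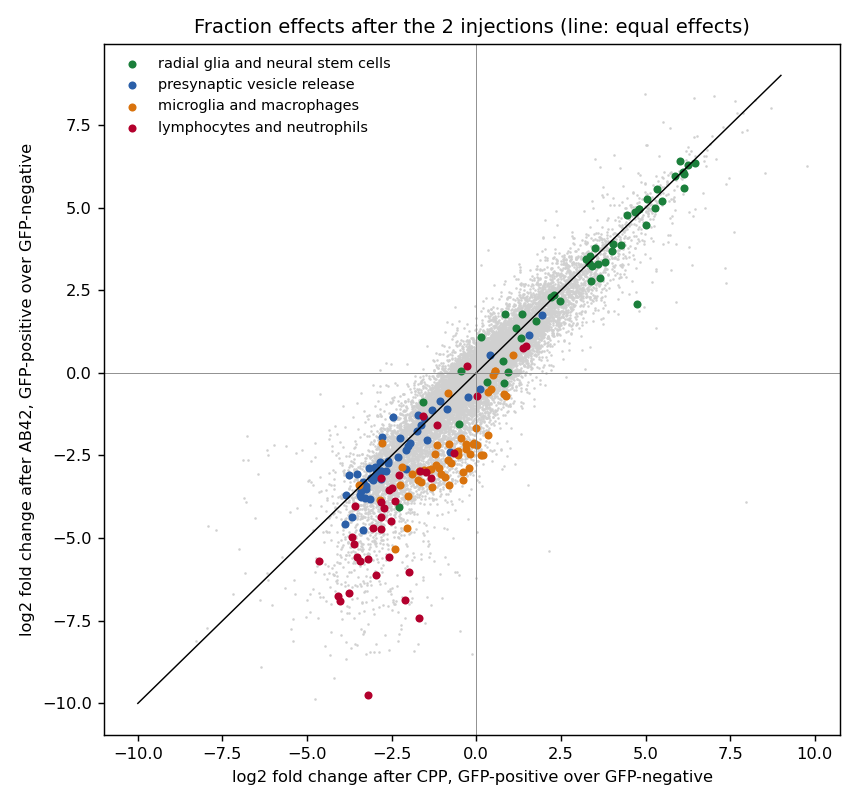
Log2 fold change of GFP-positive over GFP-negative cells after CPP (x axis) and after AB42 (y axis) for the 20237 genes tested in grey, with members of 4 lists in colour. Radial glia and presynaptic genes lie near the line of equal effects, and most microglia and lymphocyte or neutrophil genes lie below it.

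Immune and epithelial lists differed between the injections. Of 52 microglia genes 45 had a lower fraction effect after AB42 and 0 a higher one (43 and 1 with library totals), with a median of -0.78 after CPP and -2.49 after AB42. Lymphocyte and neutrophil genes gave 21 of 37, antigen presentation genes 34 of 49, inflammatory genes 37 of 67 and epithelial genes 17 of 39 in that direction. The microglia list differed in level in both fractions, by more in the GFP-negative one. Its summed level was 4573, 4356 and 4742 CPM in GFP-negative libraries after CPP, below all 3 after AB42, and 2887, 2794 and 3029 CPM in GFP-positive libraries, above all 3 after AB42. In csf1ra the GFP-negative libraries stood at 7.07, 8.19 and 8.58 CPM after CPP and the GFP-positive ones at 8.06, 6.16 and 3.91 CPM, so the log2 fold change was -0.39 after CPP (not called, edgeR adjusted p = 0.0681) and -2.99 after AB42 (difference -2.60 ± 0.27, edgeR adjusted p = 1.24e-09). With library totals csf1ra was called lower after CPP (-0.87, edgeR adjusted p = 0.000363). It was also called lower there with RLE size factors, DESeq2, the other filters on low counts and a replicate block. The same held without CPP GFP-negative replicate 1 or CPP GFP-positive replicate 1. For ighm the GFP-positive libraries held 13, 9.91 and 12.2 CPM after CPP and 0.25, 0.237 and 0.543 CPM after AB42, and the fraction effect went from -1.68 to -7.42. The keratin krt5 went from -2.80 to -6.04, with GFP-negative libraries at 736, 697 and 701 CPM after CPP and GFP-positive libraries at 103, 114 and 89.4 CPM after CPP. The T cell factor tbx21 had 4.44, 4.47 and 3.66 CPM in GFP-negative and 0.079, 1.04 and 0.186 CPM in GFP-positive libraries after CPP, and 0 counts in GFP-positive libraries after AB42. The part of the number of immune cells in each fraction in these differences was not tested.

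**Figure D4:**
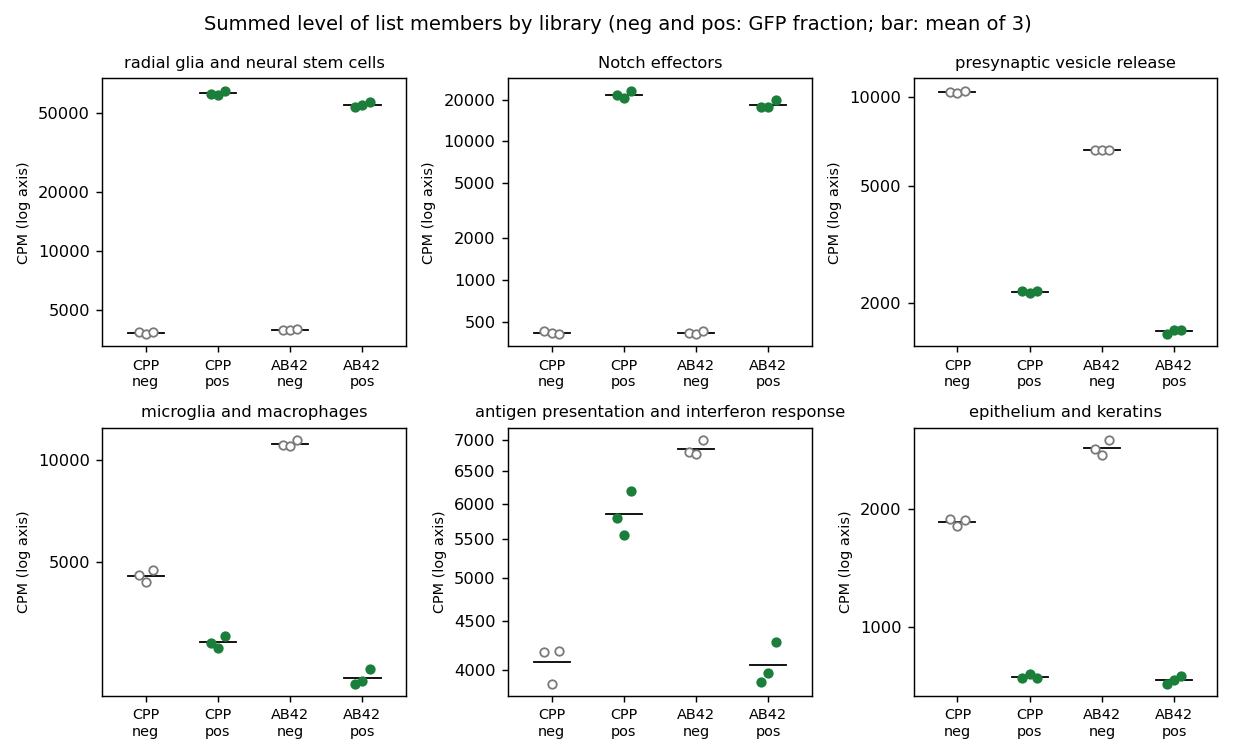
Summed CPM of 6 gene lists in each of the 12 libraries, open points for GFP-negative and filled points for GFP-positive cells, grouped by injection, on a log axis. The microglia list is higher in GFP-negative libraries after AB42 than after CPP, and the presynaptic list is lower after AB42 in both fractions.

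Of 26 lipid transport and storage genes 12 had a lower fraction effect after AB42 and 2 a higher one, or 10 and 5 with library totals. Over all genes 16.5% were called lower and 5.46% higher under TMM. Of the 26 genes, 4 were called higher in the GFP-positive fraction with CPP but lower with AB42, as were 261 of all 20237 genes. With library totals 3 of the 26 were called so, and 1 the reverse. The apolipoprotein apoeb (ENSDARG00000040295, GRCz10 chromosome 16, 24045712 to 24048429) stood at 3476, 3418 and 3601 CPM in GFP-negative and 1729, 1686 and 1781 CPM in GFP-positive libraries after AB42, and at 911, 801 and 894 CPM and 1647, 1602 and 1710 CPM after CPP. It was lower in GFP-positive cells after AB42 (-1.01 ± 0.05) and higher after CPP (0.93), and the fractions overlapped after neither (difference -1.94 ± 0.07, edgeR adjusted p = 4.29e-22). The lipid droplet coat gene PLIN2 went from 0.20 after CPP to -1.78 after AB42, with GFP-negative libraries at 27.8 ± 3.8 CPM and 218 ± 0.953 CPM (SD, n = 3). The retinoid X receptor rxrga went from 0.35 to -1.79. Related genes were picked after their values were seen: apoc1 went from 0.50 to -1.34, the cholesterol exporter abca1b from 0.64 to -1.38, the fatty acid binding protein fabp4a from 0.39 to -1.67 and the haem oxygenase HMOX1 from 0.53 to -1.23. Under TMM all of these were called in both comparisons, PLIN2 after CPP with an edgeR adjusted p of 0.0428. The sign after CPP rests on the scaling for most of them: with library totals the median of all genes after CPP moved to -0.466, and only apoeb was still called higher in GFP-positive cells after CPP (0.44). PLIN2 was then called lower (-0.28, edgeR adjusted p = 0.00345), and rxrga (-0.13), fabp4a (-0.10), apoc1 (0.02), HMOX1 (0.04) and abca1b (0.15) were not called. Their differences between the injections were called with both scalings. Microglia also express apoeb. The macrophage genes cd68 and havcr1, both chosen after their values were seen, went from 0.89 to -0.69 and from 0.35 to -1.89 (0.40 and -0.14 after CPP with library totals), whereas the microglia and macrophage list was mostly lower in GFP-positive cells after CPP too, 9 higher and 34 lower of 52, with 5 members called in opposite directions. The part of macrophages in the lipid genes was not tested.

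**Figure D5:**
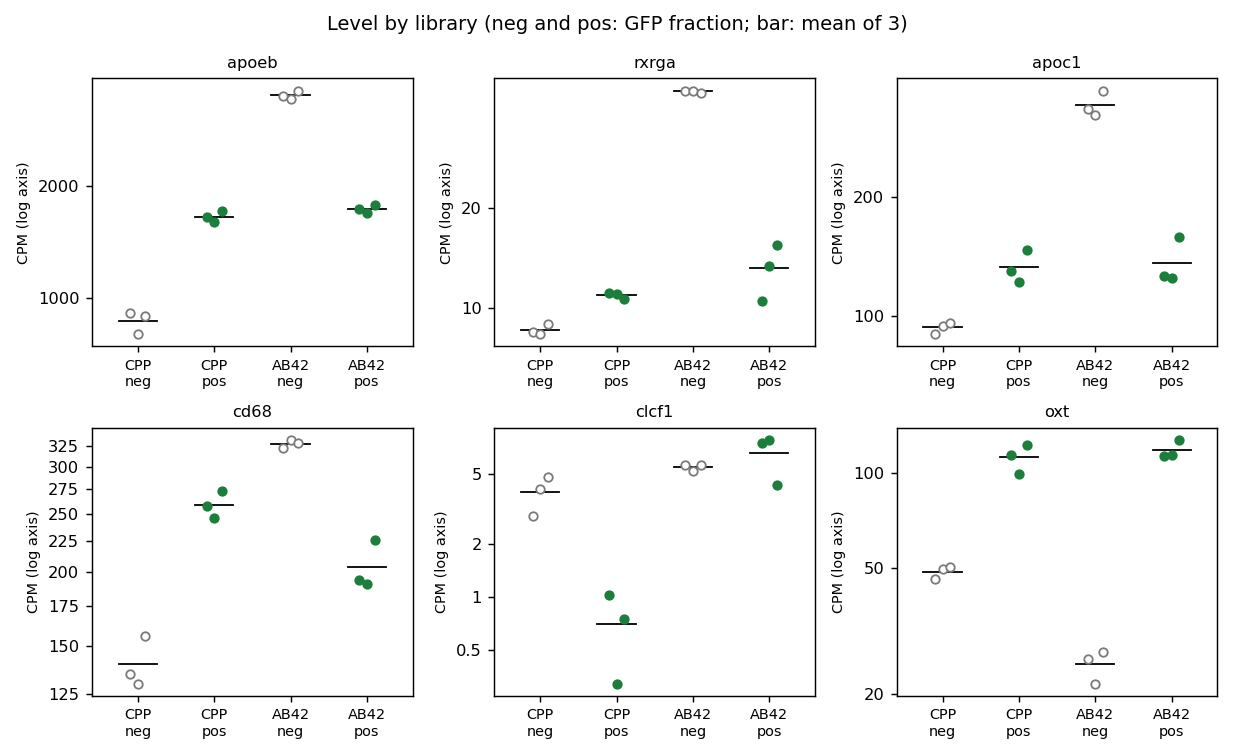
CPM on a log axis in each of the 12 libraries for 6 genes whose fraction effect was called different between the injections, open points for GFP-negative and filled points for GFP-positive cells. For apoeb, rxrga, apoc1 and cd68 the filled points lie above the open ones after CPP and below them after AB42 on the TMM scale, and with library totals apoeb and cd68 alone of the 4 are called higher after CPP; clcf1 is low in the GFP-positive libraries after CPP, and oxt is higher in the GFP-positive libraries after both.

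Cytokine genes also differed between the injections. In the control brains il4r.1 was higher in GFP-positive cells by 0.81 (from 13.1, 12 and 14.7 to 23.3, 20.6 and 26.5 CPM) and not called after AB42, a difference of -1.0 ± 0.16 (edgeR adjusted p = 5.58e-06). In both fractions all il4r.1 levels after AB42, given above, lay above those after CPP. The ligand il4 was lower in GFP-positive cells after both injections, with a larger gap after AB42 (-2.04 and -4.46). The gp130 cytokine clcf1 was lower in GFP-positive cells after CPP, from 2.9, 4.13 and 4.81 to 1.03, 0.32 and 0.745 CPM, and not called after AB42 (0.28 ± 0.22, edgeR adjusted p = 0.263). il6, chosen after its values were seen, went from 0.90 (0.43 and not called with library totals) to -2.53. HBEGF went from -0.85 to -3.31 and the neurotrophin receptor gene ENSDARG00000089223 from -0.32 to -2.69.

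Lists that were higher in GFP-positive cells also held differences between the injections. Radial glia genes gave 6 with a higher and 13 with a lower fraction effect after AB42 of 46, or 15 and 7 with library totals. Glutamine synthetase (ENSDARG00000099776) went from 3.39 to 2.77 and GJA1 from 6.15 to 5.59. Among cilia genes 6 of 56 had a higher effect and 2 a lower one, or 13 and 2 with library totals. Over all genes 5.46% were called upwards and 16.5% downwards under TMM. FOXJ1 went from 2.80 to 3.53, DNAI4, an axonemal dynein component, from 1.98 to 4.09 and crocc2 from 2.31 to 4.12. The other largest upward differences by the rule included genes of both fractions, PMCH (-7.94 to -4.64), ensaa (-0.71 to 1.48), SCX (-0.52 to 1.56) and PRDM13 (-0.03 to 2.03), and oxt went from 1.2 to 2.25. ER stress genes had a lower effect after AB42 in 26 of 48 and a higher one in 1, 22 and 5 with library totals. Immediate early genes did so in 38 of 58 and in 4, 25 and 8 with library totals. HSPA5 was at 807, 789 and 802 CPM in GFP-negative and 1610, 1726 and 1677 CPM in GFP-positive libraries after CPP, so it was higher in both fractions after AB42 and the gap between them went from 1.06 to 0.28. Ribosomal protein genes had 71 of 80 lower, and 26 with library totals.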

How the data were processed

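Messenger RNA was copied into cDNA with poly-dT primers and template switching, amplified and sequenced single-end at 75 bases, per the labels' protocols. Per the submitters' processing notes the authors aligned reads with BWA 0.7.12 to GRCz10 (danRer10) and counted them with featureCounts, and the deposited values are whole, unscaled counts for each Ensembl gene. The strand setting, annotation release and filters were not given in the sources used here. Reads of antisense partners cannot be told apart. Reads are amplified without molecular identifiers, so floors cover counting error only.

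Counts were fitted with edgeR 4.0.16 in R 4.3.3: filterByExpr, TMM scaling, 1 model with 4 group means over all 12 libraries, quasi-likelihood tests and Benjamini-Hochberg adjustment over all 20237 genes in each comparison. CPM and fold changes follow from that fit, with a prior count of 0.125. The procedure was also run on simulated data in which only a small share of genes was changed. That simulation cannot test the scaling where most genes differ, as here. Libraries of a group differed by 2.01 to 3.02 times counting noise, so none was a duplicate. The labels do not say what a replicate number marks, so it was not used as a block in the main fit. Same-numbered libraries of the fractions deviated together only weakly (r of 0.03, 0.037 and 0.07 after AB42). An r over all genes cannot show whether a part of the genes shares a replicate effect. Across the 4 groups every pair of replicate 3 libraries had a positive r, from 0.060 to 0.092. Whether these libraries share a batch was not tested.

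Gene names came from a supplied name table (26121 genes matched), coordinates from the deposited table. Of 1825 listed symbols 1172 were matched as written, 506 after removal of a paralog suffix and 147 not at all. A shortened symbol brought in every gene of that name, so lists can hold paralogs that were not meant, CYP19A1 perhaps among them. The genes named are the 12 largest rises and falls, the 8 largest with at least 200 CPM, up to 4 members with the smallest p of each of 42 lists plus up to 2 in the minority direction, a fixed set of markers, and the 8 largest differences between injections in each direction. A selection of them is described, and some are not reported here. Genes outside the rule, added after their values were seen, are GLI1, HEY1, HMOX1, SHH, SLC17A7, SLC6A11, SPI1, TH, abca1b, apoc1, avp, cd68, csf1ra, fabp4a, havcr1, her15.1, her8a, il1b, il6 and kiss1. The members and lists were chosen with earlier results of these data known. A search of promoters for motifs was not run, since no sequence was at hand. Alternatives were library totals, DESeq2's RLE size factors, DESeq2 1.42.0 itself, other filters on low counts, a replicate block, a fit on the 6 AB42 libraries and each library left out.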

Additional observations from a re-analysis of the deposited data

Results flagged for a closer look

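The effect of the fraction differed between the AB42 and CPP injections, by edgeR's test of the difference, for 30 of the 31 genes for which the report gives both effects; her4.1 was the exception. These genes were named partly for that difference, so the count is a description. Values are the log2 fold change after AB42 minus that after CPP, and a negative value means that the level in GFP-positive relative to GFP-negative cells was lower after AB42.

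Among immune and epithelial genes the difference was -5.74 for ighm, -6.55 for tbx21 (fitted with 0 counts in GFP-positive libraries after AB42, so no bound), -3.24 for krt5, -2.60 for csf1ra, -2.24 for havcr1 and -1.57 for cd68. Among lipid and haem genes it was -2.14 for rxrga, -2.06 for fabp4a, -2.02 for abca1b, -1.98 for PLIN2, -1.94 for apoeb, -1.84 for apoc1 and -1.76 for HMOX1. Among cytokines, growth factors and their receptors it was -3.44 for il6, -2.46 for HBEGF, -2.42 for il4, -2.36 for NGFR (ENSDARG00000089223), -1.0 for il4r.1 and 2.79 for clcf1. Smaller shifts were found for HSPA5 (-0.79), GLUL (ENSDARG00000099776, -0.62), GJA1 (-0.57) and FOXJ1 (0.73). The other upward shifts were 3.31 for PMCH, 2.19 for ensaa, 2.11 for DNAI4, 2.07 for SCX, 2.06 for PRDM13, 1.81 for crocc2 and 1.05 for oxt.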

How the results depend on the processing

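Library totals in place of TMM moved the calls after each injection towards the GFP-negative fraction, and those for the difference of the effects upwards. Of the calls, 87.7% after AB42, 80.5% after CPP and 72.4% for the difference of the effects kept both their direction and an adjusted p under 0.05. The opposite way, 5, 295 and 0 were called, and after CPP 4630 genes were higher. For the difference of the effects library totals gave 3248 genes higher and 2109 lower, against 1105 and 3334 under TMM. With at least 10 CPM in 3 libraries 11732 genes were tested, and 9528 were called after AB42 (4810 higher, 4718 lower) and 9630 after CPP (4605 lower); fewer genes were tested. RLE size factors, DESeq2 and no filter gave 14907, 14441 and 15743 calls after AB42, and the 6 AB42 libraries alone 14608.

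Leaving out 1 library gave 14340 to 14526 calls after AB42, 6971 to 7086 higher and 7369 to 7460 lower. For the difference it gave 3839 to 4382, 907 to 1470 higher and 2517 to 3257 lower, and after CPP 14291 to 14481, 6727 to 7312 higher and 7026 to 7644 lower. With the replicate number as a block 15123 genes were called after AB42 and 5105 for the difference. The labels do not say what libraries of the same number share. Within AB42 each library correlated best with its own number.

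Medians of lists changed sign as follows; the cause was not tested. Notch ligands (0.02) gave -0.23 with library totals, -0.0019 with RLE, -0.0039 with DESeq2, and -0.09 (without GFP-positive replicate 1) to 0.13 with 1 library left out, also -0.02 without GFP-negative replicate 2. With library totals Notch receptors gave -0.09, lipid transport -0.19, chaperones -0.18 (-0.0053 at 10 CPM), antigen presentation -0.05 and ribosomal proteins -0.05. At 10 CPM the retinoid median of -0.12 became 1.25. For single genes after CPP, library totals turned PLIN2 to -0.28, fabp4a to -0.10, havcr1 to -0.14 and rxrga to -0.13. The call of PLIN2 after CPP was also lost with RLE, DESeq2, the 10 CPM filter and each CPP library left out but GFP-negative replicate 3, and that of rxrga with the same 3 settings and 3 of the libraries. Every difference between the injections reported for a single gene kept its side of the threshold and its direction under all alternatives that could be fitted.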
